A study of Mus musculus with 18 samples.

Results

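Nascent transcription of 8 small nucleolar RNA (snoRNA) host genes, Gas5, Snhg1, Snhg3, Snhg5, Snhg6, Snhg8, Snhg12 and Snhg17, was followed in mouse embryonic stem (mES) cells with and without Tet2. These were the rows whose Ensembl identifier carries one of the 8 symbols in GENCODE M21, 8 of 54446 genes counted. WT and Tet2-KO mES cells (labelled Tet2-/-) were grown with serum, LIF and the inhibitors CHIR99021 and PD0325901, and were given 1 mM ethynyl uridine (EU) for 10, 20 or 40 min. EU enters RNA while it is made, so that biotin capture enriches RNA synthesized during labelling. How much unlabelled RNA was carried along was not tested. There were 6 groups of 3 libraries, 18 in all. The cells had been passaged on gelatin to clear feeder cells. Every library of a genotype came from dishes of the same line, and no second knockout clone was compared. Tet2 encodes a dioxygenase that oxidizes 5-methylcytosine in DNA and RNA, and the comparison asks how its loss changes transcription.

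snoRNA host genes are transcribed by RNA polymerase II, and their snoRNAs are cut from the excised introns. Box C/D snoRNAs guide ribose methylation and box H/ACA snoRNAs guide pseudouridylation of ribosomal and other RNAs, so that much of what these genes are known for lies in their introns. The spliced host RNAs often carry a terminal oligopyrimidine start, bind ribosomes and are removed by nonsense-mediated decay. Gas5 is the best known: its spliced RNA is scarce in growing cells and accumulates when growth stops.

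RefSeq, on GRCm38.p6, held a promoter entry for 7 of the 8 members. The sequences below run from 40 bases before the start to 20 bases from it, with the start as the first of these 20. Capitals mark a TATA-like word, TATAAA or TATATA on either strand within the 40 bases, and a run of at least 5 pyrimidines from the first transcribed base. The sequences are shown to describe the starts of these genes, and a link to their levels was not tested. Gas5 and Snhg17 each have 2 start sites in RefSeq. The second is printed, since it holds the marked letters, and the first of each holds neither.
Gas5 (chr1:161035126-161035185, plus strand): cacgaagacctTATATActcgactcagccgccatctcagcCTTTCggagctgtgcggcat
Snhg8 (chr3:123508317-123508376, minus strand): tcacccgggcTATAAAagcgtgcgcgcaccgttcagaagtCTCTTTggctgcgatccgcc
Snhg12 (chr4:132308638-132308697, plus strand): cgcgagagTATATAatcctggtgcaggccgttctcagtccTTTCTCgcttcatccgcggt
Snhg17 (chr2:158361490-158361549, minus strand): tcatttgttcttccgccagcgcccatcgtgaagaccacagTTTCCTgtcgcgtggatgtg
Snhg5 (chr9:88522878-88522937, minus strand): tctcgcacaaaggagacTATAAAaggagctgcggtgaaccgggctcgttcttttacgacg
Snhg1 (chr19:8723447-8723506, plus strand): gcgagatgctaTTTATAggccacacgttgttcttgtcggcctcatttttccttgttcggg
Snhg3 (chr4:132353667-132353726, minus strand): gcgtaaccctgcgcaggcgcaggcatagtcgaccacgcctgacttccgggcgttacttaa
A TATA-like word was found at a start of 5 of the 7 members and at 4.64% of 27025 genes with an entry. That of Snhg1 was on the opposite strand. A pyrimidine run began at a start of 4 of the 7 members and of 5.28% of the genes. Both stood at the same start in Gas5, Snhg8 and Snhg12, 3 of 7 members, and in 0.181% of genes. In Snhg3 neither was found in this window.

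The snoRNAs themselves are a feature of all 8 members. The 8 spans held 32 annotated snoRNA entries at 30 places, from 10 entries in Gas5 and 8 in Snhg1 down to 1 each in Snhg6 and Snhg8. Sequences of GENCODE M21 (mm10) are shown for at least 1 entry of 6 hosts, as the products that these genes carry. Capitals mark the C box TGATGA and the last CTGA (D box) of C/D snoRNAs, and the ACA that stands 3 bases from the end of H/ACA snoRNAs.
Snord47, in Gas5 (chr1:161038082-161038158, plus strand): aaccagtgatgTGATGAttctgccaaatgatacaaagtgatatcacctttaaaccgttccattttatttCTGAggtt
Gm25855, in Snhg1 (chr19:8723993-8724064, plus strand): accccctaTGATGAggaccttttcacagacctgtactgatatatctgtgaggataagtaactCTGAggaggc
Snord50a, in Snhg5 (chr9:88521529-88521600, minus strand): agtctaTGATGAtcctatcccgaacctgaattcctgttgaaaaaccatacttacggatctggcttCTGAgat
Snord50b, in Snhg5 (chr9:88521797-88521868, minus strand): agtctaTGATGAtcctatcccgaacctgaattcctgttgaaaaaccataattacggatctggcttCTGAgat
Snord87, in Snhg6 (chr1:9942463-9942549, minus strand): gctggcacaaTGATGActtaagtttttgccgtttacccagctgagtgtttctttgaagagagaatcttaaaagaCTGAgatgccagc
Snord99, in Snhg12 (chr4:132310691-132310764, plus strand): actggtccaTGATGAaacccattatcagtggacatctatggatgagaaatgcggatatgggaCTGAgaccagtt
Snora24, in Snhg8 (chr3:123507937-123508066, minus strand): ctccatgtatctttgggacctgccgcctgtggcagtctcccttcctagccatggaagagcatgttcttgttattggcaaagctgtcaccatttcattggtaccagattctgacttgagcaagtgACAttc
An entry in Gas5 carries a microRNA symbol, Mir5117. Of the 32 entries, 18 held both C and D boxes, 6 the ACA and 8 neither in these exact letters. Gas5 (8 entries), Snhg1 (6), Snhg5 (2) and Snhg6 (1) held C/D entries, Snhg3 (2) and Snhg8 (1) held ACA entries, and Snhg12 held both kinds, 3 ACA and 1 C/D. The 3 entries in Snhg17 matched neither. Snord50a and Snord50b of Snhg5 have 72 bases each and differ by 1 substitution, C50A, counted from the first base of Snord50a. Snora73a and Snora73b of Snhg3 differ at 7 of 205 bases, an identity of 96.6%.

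**Figure D1:**
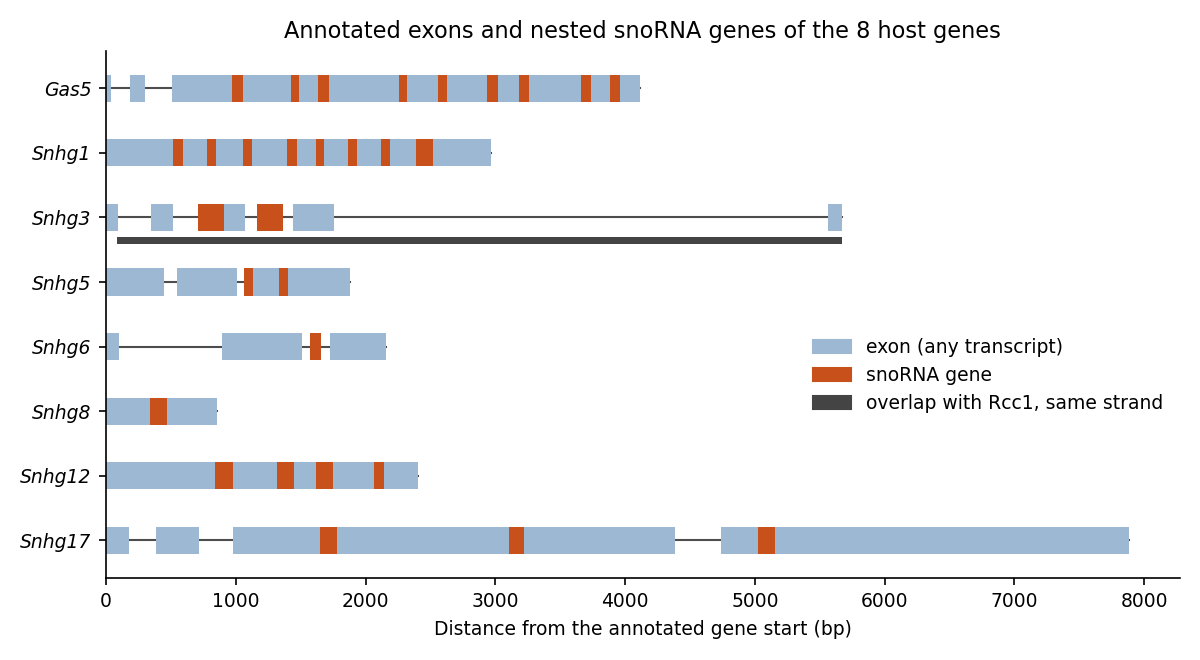
Annotated exons (any transcript), snoRNA entries and the same-strand overlap with Rcc1, drawn by distance in bp from each gene's annotated start. Snhg1, Snhg8 and Snhg12 are covered by exons over 100% of their span once every annotated transcript is joined, and Rcc1 covers 5592 of the 5673 bp of Snhg3.

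How the reads were counted decides what these genes can show. All 32 snoRNA entries were listed at 0 in all 18 libraries, and so were all 674 snoRNA genes of the genome that lie wholly inside a gene of the same strand. Among 817 snoRNA genes that no such gene overlaps, 221 (27.05%) had a read. The same held for other nested genes. Of 5237 genes inside an intron of a same-strand gene and touching none of its exons, 7 (0.134%) had a read, against 4471 of 6069 (73.669%) where the surrounding gene was on the opposite strand. Reads were therefore assigned to the whole span of a gene, introns included, by strand, and were left out where 2 genes of the same strand overlap. A host's count covers its exons and introns without the nested snoRNAs, and the zeros of the snoRNAs say nothing about how much snoRNA was made.

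Snhg3, the host of Snora73a and Snora73b, was likewise listed at 0 in all 18 libraries. Only 81 of its 5673 bp (chr4:132348014-132353686, minus strand) lie outside Rcc1, which encodes the nucleotide exchange factor of the GTPase Ran and had 21446 reads in all. Its nascent RNA could not be seen in these counts, so 7 of the 8 members were tested. Of these 7, Gas5 had the most reads over the 18 libraries (61890, chr1:161034422-161038539, plus strand). Snhg17 followed with 39610 (chr2:158353700-158361580, minus strand), Snhg5 with 29568 (chr9:88521050-88522929, minus strand) and Snhg1 with 25889 (chr19:8723475-8726443, plus strand). Snhg12 had 14422 reads (chr4:132308623-132311024, plus strand), Snhg6 had 11954 (chr1:9941959-9944118, minus strand) and Snhg8 had 6767 (chr3:123507552-123508404, minus strand). Gas5 overlaps Zbtb37 over 428 bp and Snhg6 overlaps Mcmdc2 over 127 bp, both on the opposite strand.

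Gene reads per library lay between 17931614 and 23069143, and reads on the 92 ERCC spike-in transcripts between 44162 and 512186. Reads were not counted by molecular identifiers, and the replicate p-values measure the spread between dishes of 1 line per genotype. Tet2 itself had 13117 to 17092 reads per WT library and 9730 to 13011 per library labelled Tet2-KO. A total over the whole gene cannot show the loss of an exon, so the genotype rests on the labels. Of 8 embryonic stem cell markers, 7 were tested; Sox2, which lies inside Sox2ot on the same strand, was listed at 0. Of the feeder fibroblast markers, summed shares were 2.75 to 15.7 reads per 1000000 gene reads (CPM) in WT and 5.14 to 12.6 in Tet2-KO libraries, and those of primitive endoderm markers 6.31 to 13.5 and 4.80 to 10.4.

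Set per length, the hosts spanned a wide range. In WT at 10 min, Gas5 gave 71.0 ± 1.65 (SD, n = 3) CPM per kb of span not shared with another gene. Snhg5 gave 57.4 ± 0.247, Snhg8 33.9 ± 1.89, Snhg1 32.1 ± 0.410, Snhg12 22.7 ± 2.74, Snhg6 20.4 ± 1.46 and Snhg17 15.9 ± 0.989 on this scale. Only Snhg12 and Snhg6 overlapped between neighbours in this order. In the libraries labelled Tet2-KO the top of the order was the other way round: at 10 min Snhg5 gave 49.5 ± 3.96 and Gas5 41.1 ± 2.204, with all 3 Snhg5 values above all 3 of Gas5, and at 20 and 40 min Snhg5 again lay above Gas5 without overlap. Values per length assume even coverage, and the order was not tested.

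The level relative to the spike-in was compared first, since ERCC RNA had been added in proportion to total RNA and the study calibrated transcription by it. Across the mean of the 3 labelling times, all 7 tested hosts were higher in Tet2-KO than in WT (edgeR's quasi-likelihood test, Benjamini-Hochberg adjusted p at 0.05), as were 80.5% of the 19910 genes tested. The members' median log2 fold change was 0.73 and that of all genes 0.70. A factor common to all genes of a library enters every value on this scale. Because the spike-in followed total RNA, this level is captured RNA relative to total RNA. RNA per cell cannot be read from it in these bulk samples.

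Snhg1, the host of Snord22 and 7 other entries, stood highest. Its WT libraries held 3.47, 3.88 and 3.21 reads per 1000 ERCC reads at 10 min, and the Tet2-KO libraries 7.31, 8.53 and 8.18. At 40 min the values were 13.2, 14.8 and 14.4 in WT and 30.3, 23.4 and 25.3 in Tet2-KO. The genotypes did not overlap at any labelling time, and the mean difference was 0.96 ± 0.06 (SE) on the log2 scale (adjusted p = 1.09e-48), a ratio of 1.94.

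Gas5 was at the other end. Its WT libraries held 11.3, 12.2 and 10.8 reads per 1000 ERCC reads at 10 min, against 14.4, 12.3 and 13.8 in Tet2-KO. At 20 min the values were 26.6, 28.3 and 30.6 in WT and 27.9, 30.1 and 28.2 in Tet2-KO, and at 40 min 40.0, 40.6 and 38.5 against 54.4, 44.6 and 48.6. The genotypes separated at 10 and 40 min, narrowly at 10 min, and overlapped at 20 min. The mean log2 difference was 0.19 ± 0.05 (adjusted p = 0.000441), and 13.2% of all genes tested had a lower one.

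The other hosts lay between. The mean log2 differences were 0.83 ± 0.06 for Snhg12, 0.79 ± 0.07 for Snhg8, 0.73 ± 0.05 for Snhg17, 0.65 ± 0.06 for Snhg5 and 0.49 ± 0.06 for Snhg6. In each of these 5 genes all Tet2-KO libraries stood above all WT libraries at every labelling time. The same held for Rcc1, Zbtb37, Slc3a2 and Tet2, which are not members. How many of all genes were separated in this way was not counted. By time, 7 of 7 members were called higher at 10 min (79.0% of all genes), 6 at 20 min (53.7%) and 7 at 40 min (68.2%). The exception was Gas5 at 20 min, at 0.01 ± 0.09 (adjusted p = 0.931). Without Tet2-KO 10 min replicate 1, Gas5 at 10 min was no longer called either (0.19, adjusted p = 0.0782).

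**Figure D2:**
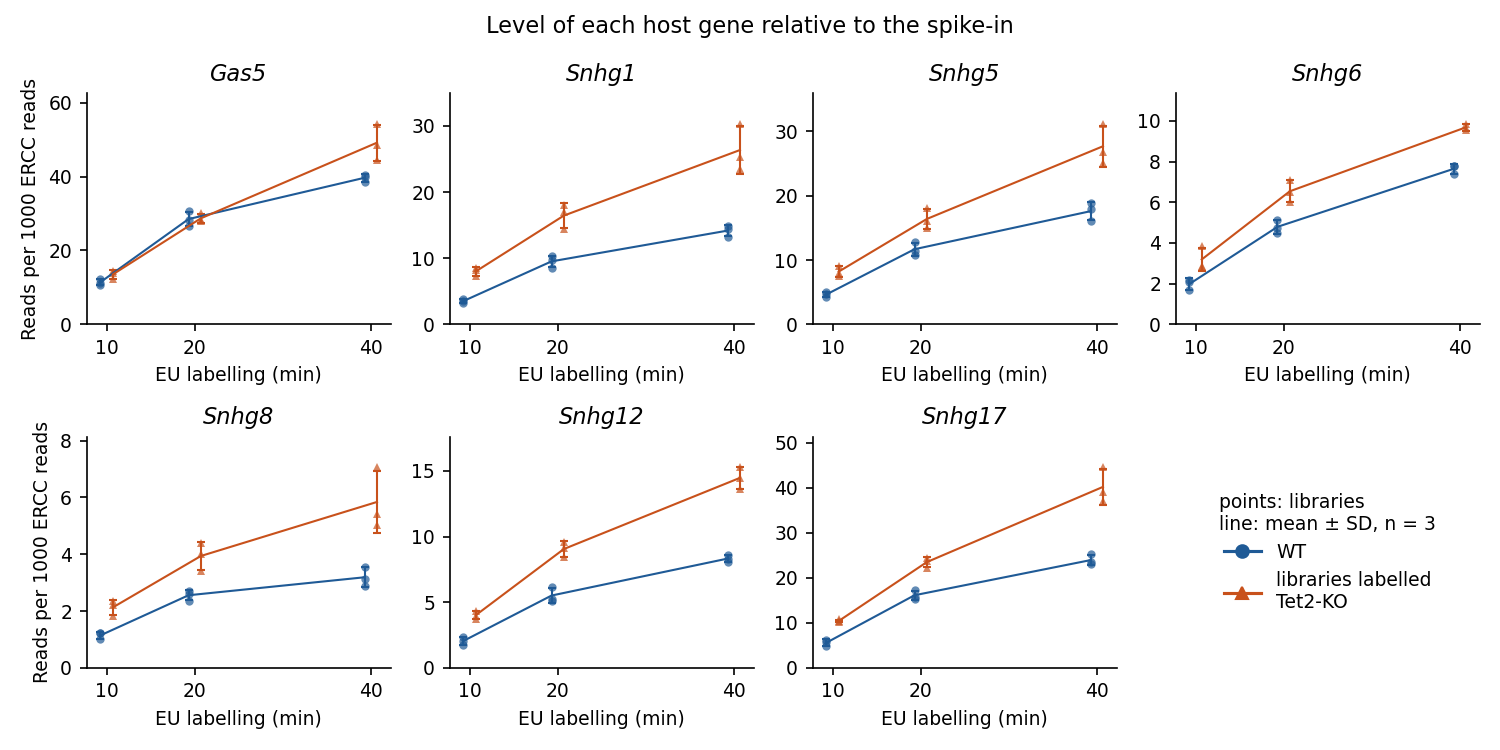
Reads per 1000 ERCC reads against EU labelling time in min for the 7 tested hosts. Circles are WT and triangles Tet2-KO libraries, and lines join the means ± SD of 3 libraries. Levels rise with labelling time in every panel, and the Tet2-KO line lies clearly above WT in each except Gas5, whose genotypes overlap at 20 min.

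The rise of the level with labelling time was described by a slope. The study took its transcription rate as the slope of amounts in attomole, calibrated on the ERCC transcripts. Here the slope is that of reads per 1000 ERCC reads, which is another input. Fitted with an intercept over 9 libraries per genotype, Gas5 gained 0.888 ± 0.113 (SE) reads per 1000 ERCC reads each minute in WT and 1.17 ± 0.0869 in Tet2-KO, a ratio of 1.31 ± 0.193. Snhg8, the shortest host, had a ratio of 1.90 ± 0.468, with slopes of 0.0629 ± 0.0117 and 0.1197 ± 0.0192. Its ratio was 1.28 over 10 and 20 min alone, 3.004 over 20 and 40 min and 1.755 through the origin. The ratio was 1.76 ± 0.284 for Snhg1, 1.69 ± 0.227 for Snhg12, 1.67 ± 0.230 for Snhg17, 1.55 ± 0.221 for Snhg5 and 1.14 ± 0.145 for Snhg6. The line described the levels less well in Snhg8, with an R2 of 0.804 in WT and 0.847 in Tet2-KO, than in the other hosts, where R2 was 0.899 or higher. These slopes are a description without a test. Over 10 and 20 min alone the ratio of Gas5 was 0.890, below 1, and over 20 and 40 min it was 1.83.

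The share of gene reads was compared next, because it does not use the spike-in and sets each host against the other transcripts of its own library. On this scale hosts were called in both directions, as were all genes. Of the 7, 2 were called higher in Tet2-KO over the mean of the 3 times, Snhg1 and Snhg12, against 24.6% of all genes, and 3 were called lower, Gas5, Snhg6 and Snhg5, against 32.0%. The median log2 fold change was -0.00 for the members (-0.0018) and -0.04 for all genes.

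Gas5 had the most negative difference in share of the 7. WT libraries held 243, 240 and 251 CPM of Gas5 at 10 min, and Tet2-KO libraries 150.4, 137 and 137. At 20 min the values were 184, 180.3 and 218 in WT and 146, 139 and 133 in Tet2-KO, and at 40 min 165, 157 and 161 against 127, 122 and 123. All 3 Tet2-KO libraries lay below all 3 WT libraries at each time. The log2 difference was -0.79 ± 0.05 at 10 min, -0.48 ± 0.05 at 20 min and -0.38 ± 0.05 at 40 min, with a mean of -0.55 ± 0.03 (adjusted p = 5.00e-18). Gas5 made up 37.7 ± 1.36% (SD, n = 3) of the summed reads of the 7 hosts in WT at 10 min and 27.3 ± 2.004% in Tet2-KO, and 34.7 ± 0.842% and 28.4 ± 0.279% at 40 min.

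Snhg6, the host of Snord87, also had a lower share in Tet2-KO. Its WT libraries held 45.0, 42.9 and 39.1 CPM at 10 min and the Tet2-KO libraries 29.5, 32.1 and 38.4. At 40 min the values were 32.0, 30.05 and 30.8 against 22.5, 26.1 and 24.9. The genotypes were apart at 10 and 40 min and overlapped at 20 min, with a mean log2 difference of -0.24 ± 0.05 (adjusted p = 3.31e-05).

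Snhg1 had a higher share. Its WT libraries held 66.9, 65.6 and 61.2 CPM at 20 min and the Tet2-KO libraries 74.9, 83.7 and 80.2. At 10 min the WT values of 74.5, 76.4 and 75.05 overlapped with the Tet2-KO values of 76.1, 95.2 and 81.2. The genotypes were apart at 20 and 40 min, and the mean log2 difference was 0.22 ± 0.04 (adjusted p = 2.42e-06).

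The remaining hosts moved little. Snhg12 was 0.10 ± 0.04 higher in Tet2-KO on the log2 scale (adjusted p = 0.0416) and Snhg5 0.08 lower (-0.08 ± 0.03, adjusted p = 0.0310). Neither call held for every library left out. That of Snhg12 was lost when any of 13 of the 18 libraries was left out, all but replicate 1 of WT and of Tet2-KO at 10 min, replicate 2 of WT and of Tet2-KO at 20 min and replicate 1 of Tet2-KO at 40 min, with values of 0.08 to 0.10 and adjusted p of 0.0502 to 0.0924. That of Snhg5 was lost without any of 7 libraries (-0.08 to -0.06, adjusted p 0.0543 to 0.12): WT 20 min replicate 2, WT 40 min replicate 3, and Tet2-KO 10 min replicate 1, 20 min replicates 1 and 3, and 40 min replicates 2 and 3. Scaled by TMM factors, Snhg5 was at -0.04 (adjusted p = 0.297). Snhg12 stayed called under other scalings, at 0.14 with TMM (adjusted p = 0.0045) and 0.13 with DESeq2 (adjusted p = 0.0051). Snhg8 was at 0.06 ± 0.06 (adjusted p = 0.408) and Snhg17 at -0.0018 ± 0.02 (adjusted p = 0.958), with 95% intervals of -0.05 to 0.17 and -0.05 to 0.05.

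**Figure D3:**
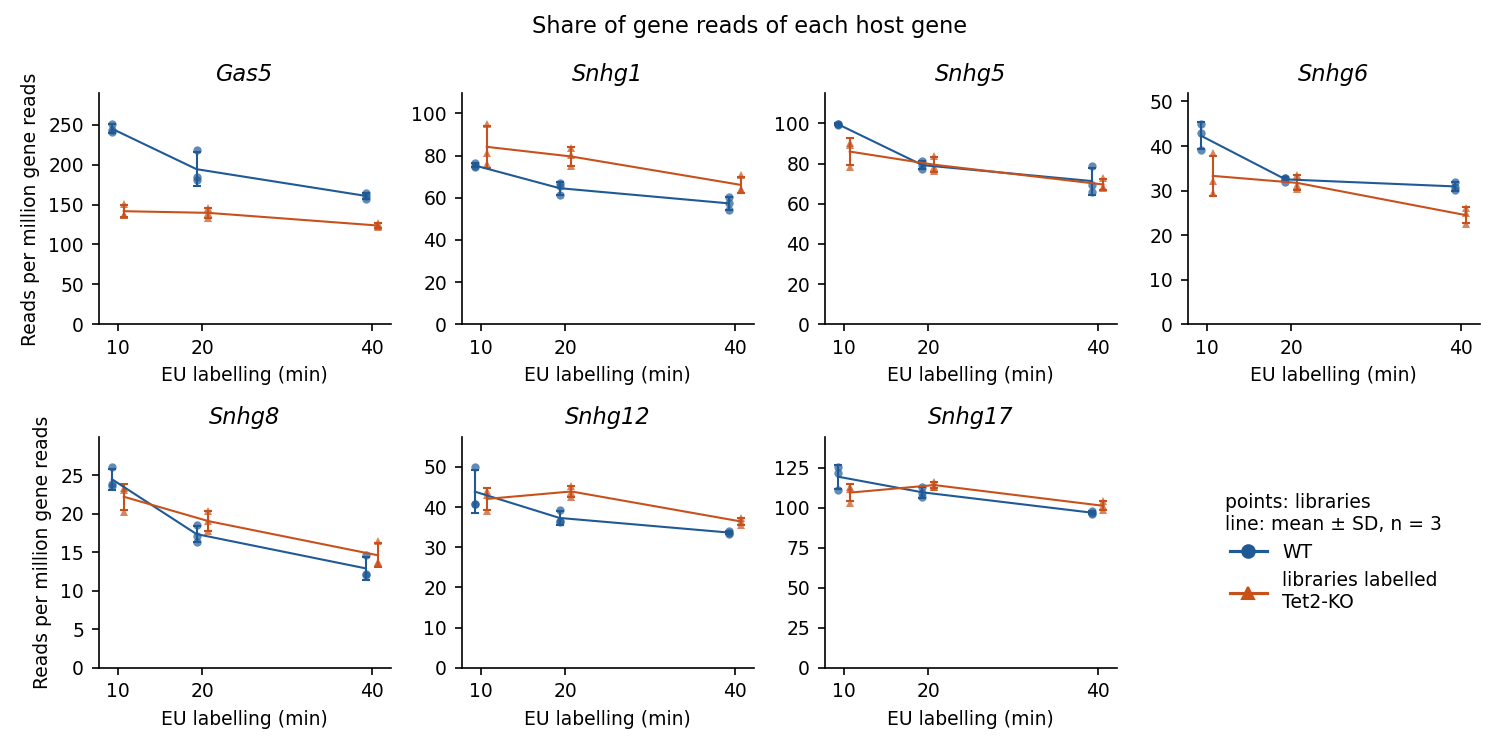
Reads per 1000000 gene reads (CPM) against EU labelling time in min for the 7 tested hosts. Circles are WT and triangles Tet2-KO libraries, and lines join the means ± SD of 3 libraries. Gas5 is lower in Tet2-KO at all 3 times, Snhg1 is higher, and every host ends lower at 40 than at 10 min in both genotypes.

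By labelling time, 4 hosts had a lower share in Tet2-KO at 10 min, Gas5, Snhg6, Snhg5 and Snhg17, beside 27.1% of all genes, and Snhg1 a higher one, beside 17.9%. At 20 min Gas5 was lower (20.7% of all genes), and Snhg1 and Snhg12 were higher (17.6%). At 40 min Gas5 and Snhg6 were lower (19.6%) and Snhg1 was higher (18.9%). The call of Snhg1 at 10 min was lost without WT 10 min replicate 1 or 3 or Tet2-KO 10 min replicate 2 (0.06 to 0.15), and at 40 min without replicate 1 of WT or of Tet2-KO at 40 min (0.16 and 0.17). The call of Snhg17 at 10 min was lost without WT 10 min replicate 1 or 2 or Tet2-KO 10 min replicate 3 (-0.11 to -0.09) and with TMM (-0.06, adjusted p = 0.297).

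Embryonic stem cell markers moved with the genotype on the same scale. Over the mean of the labelling times, 24.6% of all genes had a higher and 32.0% a lower share in Tet2-KO. Of the 7 stem cell markers tested, 1 had a higher and 6 a lower share. Their summed share was 2139 to 2289 CPM in WT and 1492 to 1663 in Tet2-KO. Of the 4 feeder fibroblast markers tested 2 had a higher share in Tet2-KO, and of the 3 primitive endoderm markers 1 had a lower one. The latter is near the share of all genes called lower. The part of these markers in the host gene differences was not tested.

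**Figure D4:**
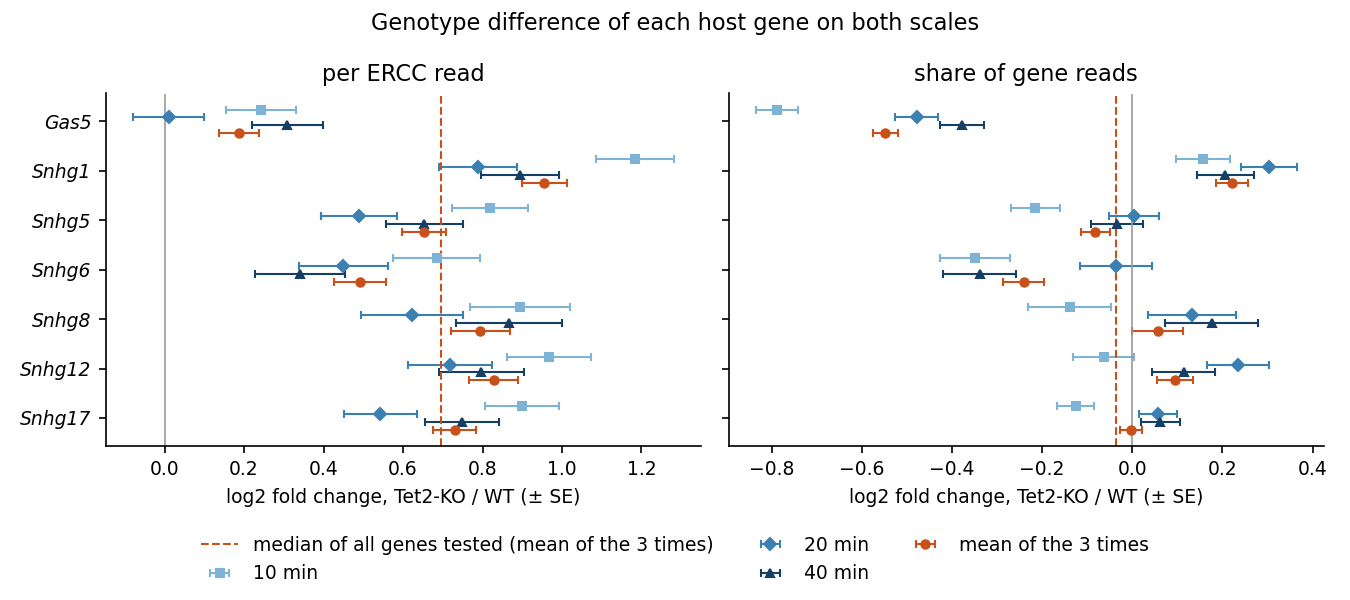
Log2 fold change of Tet2-KO over WT ± SE for the 7 tested hosts, per ERCC read on the left and as share of gene reads on the right. Markers give 10, 20 and 40 min and the mean, and the dashed line is the median of all genes tested (0.70 and -0.04). Gas5 lies to the left of that line and Snhg1 to the right of it on both scales.

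The genotype difference in share depended on labelling time for 2 of the 7 hosts, Gas5 and Snhg17, where it was more positive at 40 than at 10 min, as for 5.89% of all genes. The change was 0.41 ± 0.07 on the log2 scale for Gas5 (adjusted p = 9.92e-05). For Snhg17 it was 0.19 ± 0.06 (adjusted p = 0.0422). The latter call was lost without any of 9 libraries (0.15 to 0.20, adjusted p 0.0515 to 0.144): WT 10 min replicates 1 and 2, all 3 WT 40 min replicates, Tet2-KO 10 min replicate 3, 20 min replicate 3 and 40 min replicates 1 and 2. It was also lost with TMM (0.13, adjusted p = 0.187) and with DESeq2 (0.12, adjusted p = 0.207). Per ERCC read no host passed this test with edgeR or DESeq2. There 2 of 7 had an unadjusted p under 0.05, both with a difference less positive at 40 than at 10 min. The share of all genes at that unadjusted threshold was not counted, so these 2 have no background. On that scale the change was 0.07 for Gas5 and -0.15 for Snhg17. The median over all genes was -0.29 per ERCC read and 0.06 in share.

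All 7 hosts lost share as labelling went on. From 10 to 40 min each was called lower in WT, beside 29.5% of all genes, with a median log2 change of -0.45 against -0.14 for all genes. In Tet2-KO each was again called lower, beside 20.0% of all genes, with medians of -0.30 and -0.06. The summed share of the 7 hosts went from 649.9 ± 12.2 to 464 ± 8.37 CPM in WT and from 519 ± 11.6 to 436 ± 11.1 in Tet2-KO. The levels per ERCC read rose over the same time, as for most genes: 7 of 7 hosts were called higher at 40 than at 10 min in WT (96.7% of all genes) and in Tet2-KO (94.7%). The median log2 rise was 1.95 for the hosts and 2.26 for all genes in WT, and 1.75 and 1.996 in Tet2-KO.

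The share of Snhg8, the host of Snora24, fell furthest. WT libraries held 26.1, 23.8 and 23.6 CPM of Snhg8 at 10 min and 14.6, 12.1 and 12.0 at 40 min. The Tet2-KO libraries held 23.0, 20.3 and 23.4 at 10 min and 16.5, 13.7 and 13.7 at 40 min. The 2 times did not overlap in either genotype, and the log2 change was -0.92 ± 0.10 in WT (adjusted p = 1.61e-09) and -0.60 ± 0.10 in Tet2-KO (adjusted p = 7.29e-06).

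Gas5 followed in WT at -0.61 ± 0.05, and its change in Tet2-KO was -0.20 ± 0.05. Snhg5 changed by -0.48 ± 0.05 and -0.30 ± 0.06, Snhg6 by -0.45 ± 0.08 and -0.44 ± 0.08, and Snhg1 by -0.39 ± 0.06 and -0.34 ± 0.06. Snhg12 changed by -0.38 ± 0.07 and -0.20 ± 0.07, and Snhg17 by -0.30 ± 0.04 and -0.11 ± 0.04. TMM factors moved the values of all hosts up by a like amount, setting the WT changes of Snhg5 and Snhg17 at -0.38 and -0.20, and left all 7 lower in WT. In Tet2-KO the calls of Snhg12 and Snhg17 were lost with TMM (adjusted p = 0.0745 and 0.221) and with DESeq2 (0.0581 and 0.178). The call of Snhg12 was lost without replicates 2 or 3 of Tet2-KO at 10 min or 1 or 3 at 40 min (-0.20 to -0.17). That of Snhg17 was lost without replicates 1 or 2 at 10 min or 2 or 3 at 40 min (-0.11 to -0.09).

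The steps of the fall were called in different intervals. In WT, 7 of 7 hosts were lower at 20 than at 10 min (11.1% of all genes), and 5, all but Snhg6 and Snhg12, were lower at 40 than at 20 min (18.1%). In Tet2-KO, edgeR and DESeq2 called none between 10 and 20 min (8.27% of all genes lower). There 1 of 7 had an unadjusted p under 0.05, a threshold at which the share of all genes was not counted. Between 20 and 40 min edgeR called all 7 lower (8.95%). DESeq2 called 6 hosts lower between 10 and 20 min and 2 between 20 and 40 min in WT, and 5 between 20 and 40 min in Tet2-KO. Whether the course differed between genotypes was tested only from 10 to 40 min, by the interaction above.

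The hosts are short genes. When the tested genes were split by span into 5 classes of like size, 6 of the 7 fell in the shortest class, of 56 to 6102 bp, and Snhg17 fell in the next. In WT the median log2 change from 10 to 40 min was -0.11 in the shortest class, where 16.95% of genes were called lower, and -0.20 in the longest, where 44.4% were. In Tet2-KO these medians were -0.08 and -0.11. The 7 hosts lay below the median of their class in both genotypes. In WT, Snhg8 and Gas5 lay below the lower quartile of the shortest class (-0.56), and in Tet2-KO Snhg8 did (-0.47).

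**Figure D5:**
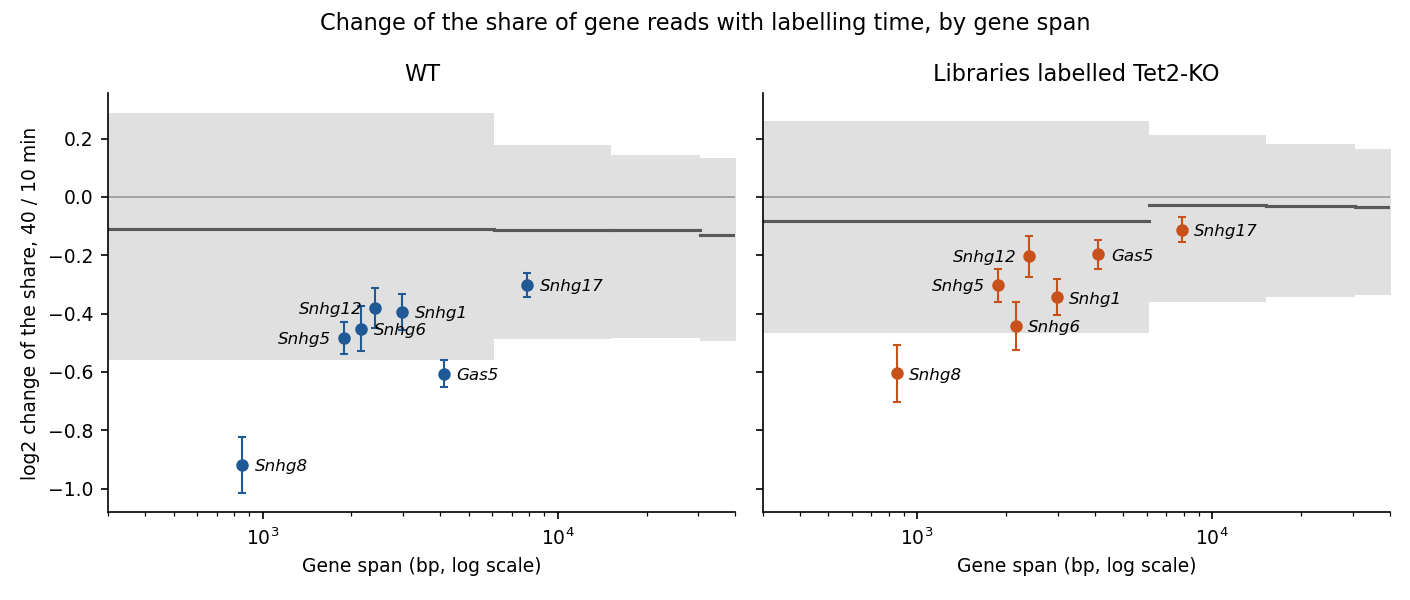
Log2 change ± SE of the share of gene reads from 10 to 40 min against gene span in bp on a log axis, for the 7 tested hosts in WT and Tet2-KO. Black lines are the medians and grey bands the quartiles of all genes tested by class of span, cropped at the axis. The longest of the 5 classes lies beyond the axis and is not shown. Every host lies under the median of its class.

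Gas5 and Snhg1 start next to a gene of the other strand. By the GENCODE starts, Gas5 begins 427 bp from Zbtb37, a BTB-domain zinc finger gene. Snhg1 begins 106 bp from Slc3a2, the heavy chain of amino acid transporters. The RefSeq start of Gas5 printed above stands elsewhere, at chr1:161035166. On the scale of gene reads, neither neighbour was called in the direction of its host over the mean of the labelling times. Zbtb37 changed by 0.03 ± 0.03 (adjusted p = 0.426) and Slc3a2 by -0.07 ± 0.03 (adjusted p = 0.0203) between genotypes. The call of Slc3a2 was absent with TMM and with DESeq2, and without WT 40 min replicate 2, Tet2-KO 10 min or 20 min replicate 2, or Tet2-KO 40 min replicate 1. The number of reads on Gas5 for each read on Zbtb37 was 3.67 in WT and 2.46 in Tet2-KO, geometric means over 9 libraries each. The log2 ratio was lower in Tet2-KO by 0.78, 0.42 and 0.53 at 10, 20 and 40 min (-0.78, -0.42 and -0.53), with an exact two-sided permutation p of 0.00025 over 8000 exchanges within labelling times, the smallest they can give, and an adjusted p of 0.0005 over the 2 pairs. Reads on Snhg1 for each on Slc3a2 were 0.573 in WT and 0.7002 in Tet2-KO (p = 0.0005, adjusted 0.0005, same exact permutation test), higher in Tet2-KO by 0.36, 0.29 and 0.22. These 2 ratios need neither the spike-in nor the library total. Rcc1, which overlaps Snhg3, had a higher share in Tet2-KO by 0.18 ± 0.03 (adjusted p = 9.10e-07).

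Other hosts were mixed too. Of 14 further noncoding hosts on the list, 11 were found and 10 tested: 3 had a higher and 4 a lower share in Tet2-KO, with a median of -0.09. Over all genes 24.6% were higher and 32.0% lower on this contrast, which is the background for each list that follows. Those with most reads were the imprinted Meg3 (-0.47 ± 0.02) and Rian (-0.49 ± 0.02), both lower, and Zfas1 (-0.09 ± 0.03), lower. Of these 10, 6 lost and 0 gained share from 10 to 40 min in WT by edgeR, where 29.5% of all genes lost share. In Tet2-KO 5 lost and 1 gained share, where 20.0% of all genes lost it. Of 258 protein-coding genes with a snoRNA inside, 234 were tested, of which 94 had a higher and 70 a lower share in Tet2-KO (median 0.01). The most read were Ncl, encoding nucleolin (0.13 ± 0.01), Eif3a, a translation initiation factor subunit (0.07 ± 0.01), and Etl4 (0.35 ± 0.01), all higher. From 10 to 40 min in WT, 77 protein-coding hosts gained and 84 lost share, where 29.5% of all genes lost it. Their median was -0.04, against -0.14 for all genes. How many of all genes gained share with time was not counted, so the gains have no background here.

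The machinery that binds snoRNAs and the decay pathway of spliced host RNA were described beside them. Of 18 genes of snoRNP (snoRNA-protein particle) core and assembly factors, 2 had a higher and 7 a lower share in Tet2-KO, with a median of -0.04, as for all genes. With TMM or DESeq2, 5 had a higher share. Nolc1, a nucleolar chaperone, was at 0.04 ± 0.02 (adjusted p = 0.0557), Nop58, a box C/D core protein, was lower at -0.04 ± 0.01, and Znhit6, an assembly factor, was at 0.03 ± 0.02 (adjusted p = 0.212). Of 10 nonsense-mediated decay genes, 6 had a higher and 2 a lower share, beside 24.6% and 32.0% of all genes, with a median of 0.11. Smg1, the kinase of the pathway (0.10 ± 0.01), and Smg6, its endonuclease (0.14 ± 0.01), were higher. Per ERCC read, 9 of the 10 further noncoding hosts, 219 of the 234 protein-coding hosts, 17 of the 18 snoRNP genes and all 10 decay genes were higher in Tet2-KO, beside 80.5% of all genes.

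Across the 18 libraries, the log2 shares of Snhg5 (r = 0.93), Snhg8 (0.925) and Snhg17 (0.89) followed the members' mean standardized profile most closely, and those of Snhg1 (0.70) and Gas5 (0.60) least. Each host is part of that mean, which raises its own r, so these values cannot be set beside those of other genes. Of 11898 other genes with a mean log2 CPM above 2, the most alike were Epb41l5 (Pearson r = 0.958), Phldb2 (0.946), Tpd52l1 (0.946), Snx5 (0.945) and Zfas1 (0.944), where the median over these genes was 0.0927. The libraries share labelling times and genotypes, and the first 4 of these genes are protein-coding with spans from 20784 to 207356 bp.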

How the data were processed

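Nascent RNA captured after EU labelling was sequenced with a stranded kit (SMARTer Stranded Total RNA-Seq v2 Pico) from 18 libraries in 6 groups. The authors trimmed reads with Trimmomatic 0.39, aligned them with HISAT2 2.2.1 to mm10, GENCODE M19 and ERCC sequences, and deposited HTSeq 0.12.4 counts per gene, not normalized. The overlap mode is not given in the sources used here and was read from the counts. GENCODE M21 (mm10) gave names and positions for 54409 of 54446 identifiers. Reads counted for no gene, including ambiguous and not uniquely aligned ones (20.9 to 24.9% of each library's total), were left out.

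Levels are reads per 1000 ERCC reads or per 1000000 gene reads. Genes were kept by edgeR's filterByExpr (minimum count 10), 19910 in all, and fitted in 1 model with a group per genotype and time, using ERCC or gene totals as library sizes (R 4.3.3, edgeR 4.0.16; DESeq2 1.42.0 as an alternative), with Benjamini-Hochberg adjustment at 0.05. In simulated data the fits recovered set changes that were larger than the hosts' genotype differences in share. The simulation used 1 spread for all genes and no change with time, and smaller changes were not simulated. Named genes were all members, their neighbours, the 3 most read genes of each list and the 5 genes most alike in profile; 1 gene that this rule names is not reported here. Members and lists were chosen with earlier results of these data known, and the neighbour ratios and sequence windows after values were seen. Replicate numbers did not pair the libraries.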

Additional observations from a re-analysis of the deposited data

Results flagged for a closer look

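The genotype difference in the share of gene reads changed with labelling time for Gas5, by 0.41 on the log2 scale from 10 to 40 min (edgeR interaction, adjusted p = 9.92e-05). Left-out libraries moved this value between 0.39 and 0.46. For Snhg17 the change was 0.19 (adjusted p = 0.0422), and leaving out any of 9 of the 18 libraries ended this call. Per ERCC read the changes were 0.07 for Gas5 and -0.15 for Snhg17, and neither was called.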

How the results depend on the processing

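Under other scalings, DESeq2, other filters on low counts, a block for the replicate number and each library left out, all 7 hosts stayed higher in Tet2-KO per ERCC read over the mean of the times. With each library left out in turn, the number of hosts with a higher share in Tet2-KO ranged from 1 to 2 for the mean, from 0 to 1 at 10 min and from 0 to 1 at 40 min, and the number whose difference rose with time from 1 to 2; for the last, TMM and DESeq2 each gave 1. The median slope ratio was 1.24 over 10 and 20 min and 1.925 over 20 and 40 min, against 1.67 over all times, and that of Gas5 was 0.890 over 10 and 20 min. Values near 0 changed sign. Gas5 at 20 min per ERCC read was -0.0135 with TMM and -0.0378 to 0.0642 with libraries left out. In share, Snhg17 over the mean was 0.0381 with TMM, 0.0333 with DESeq2 and -0.0182 to 0.0118 with libraries left out; Snhg12 at 10 min was 0.00678 with TMM, 0.00704 with DESeq2 and -0.11 to 0.0407 with libraries left out; Snhg6 at 20 min was 0.00145 with TMM; and Snhg5 with libraries left out was -0.0356 to 0.0312 at 20 min and -0.0887 to 0.0437 at 40 min. The number of snoRNP genes with a higher share was 5 with TMM and with DESeq2 and 4 without WT 10 min replicate 1, against 2, and no further noncoding host was lower per ERCC read with at least 10 counts in every library, against 1. The causes were not tested. Where a group was left with 2 libraries, the shared estimate of the spread was used. Replicate numbers gave 45 same-numbered pairs of libraries with correlations of -0.111 to 0.106, so they mark no pairing, and the replicate block kept 7 hosts higher per ERCC read and changed no call of a host. Of the 7 tested hosts Snhg8 had the fewest reads, 6767 over 18 libraries, and Snhg3 and the nested snoRNAs cannot be measured in these counts.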
